A study of Homo sapiens with 12 samples.

Results

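The BCL2 family of apoptosis regulators was followed through 10 genes in SK-N-Be(2)C cells, a MYCN-amplified human neuroblastoma line that was derived from bone marrow. The members were taken by name, in a choice made with earlier results of these data known. BCL2, BCL2L1 and MCL1 made up the anti-apoptotic side. BAX and BAK1 (pore formers) and BAD, BID, BBC3, PMAIP1 and BCL2L11 (BH3-only genes) made up the pro-apoptotic side, 7 genes in all. The array held 24 probes with these symbols, of which 21 were detected on at least 1 of the 12 arrays and were tested. All 10 members had a tested probe, among 12138 genes measured.

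In all, 4 groups of 3 arrays were compared. DoxR-v cells were made resistant to doxorubicin, an anthracycline, in rising dose steps and received vorinostat (SAHA, a histone deacetylase inhibitor) each time the dose was raised by a log step. DoxR cells were made resistant in the same way without vorinostat. WT-v cells received vorinostat at those times but no doxorubicin, and WT cells are the untreated parental line. The sources describe 1 line for each group and triplicate specimens of it, and do not say whether the specimens were separate cultures. P-values therefore measure the spread between these specimens only. DoxR-v and DoxR cells came from separate selections, so vorinostat and selection cannot be told apart between them.

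Whether a cell commits to death through its mitochondria depends on binding between members of this family. BAX and BAK1 oligomerise and open the outer mitochondrial membrane, which releases cytochrome c and starts the caspase cascade. BCL2, BCL-XL (from BCL2L1) and MCL1 hold them and the BH3-only proteins in check, and the BH3-only proteins either occupy the groove of the guardians or engage BAX and BAK1 directly. BCL2 is abundant in many neuroblastomas, and much of the family's control lies in protein stability, phosphorylation and cleavage, which arrays of RNA do not show.

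Signals are given as log2 probe signal after background correction and quantile normalization. A probe counted as detected on an array at a detection p under 0.01. For a gene with several probes, the probe with the highest mean is the main probe. A difference is a difference of group means on the log2 scale, with its standard error (SE). A call required a limma adjusted p below 0.1, with the fit and the adjustment over all 21730 detected probes, together with more than 1.5-fold change. Signals of different probes cannot be set against each other. Median raw signals ran from 98.7 to 125 over the 12 arrays, and 31.3 to 36.5% of probes were detected. Replicate arrays correlated at 0.981 to 0.993 over probes. All 7 neuroblastoma markers on the array were detected on all 12 arrays, with mean log2 signals of 12.0 to 12.1 on DoxR-v, 11.6 on DoxR, 12.2 to 12.4 on WT-v and 12.3 to 12.5 on WT arrays, whereas of 5 blood cell markers only CD14 was detected, on 11 arrays, with PTPRC, CD3E, LYZ and HBB detected on no array. Of 5 stromal markers, LUM and DCN were detected on all arrays, and the mean log2 signal of the 5 was 7.96 to 8.10 on DoxR-v, 6.47 to 6.48 on DoxR, 8.55 to 8.66 on WT-v and 7.49 to 7.81 on WT arrays. The part of these markers in the results was not tested, and in such bulk samples fewer cells of a type and less RNA per cell cannot be told apart. ABCB1, the P-glycoprotein gene that marks the resistant lines, averaged 11.44 in DoxR-v, 12.51 in DoxR, 10.55 in WT-v and 10.35 in WT cells.

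DoxR cells differed from WT cells on both sides of the family, in opposite directions. BCL2 and MCL1 were called higher, and BAX, BAK1 and BAD lower, so 5 of 10 members were called. Over all genes 33.8% were called in this comparison, 17.4% higher and 16.3% lower. In DoxR-v cells BCL2L1 was called higher and BAK1 lower, so 2 of 10 members were called against WT, where 25.8% of all genes were called, 13.3% higher and 12.6% lower. WT-v cells had 1 call against WT, a lower BAD, against 27.1% of all genes, 14.5% higher and 12.6% lower. Set directly against DoxR cells, DoxR-v cells had 1 call, a lower BCL2, against 29.1% of all genes, 14.7% higher and 14.5% lower. These shares lie around the background and the members are few, so no call rate particular to the family can be read from them. All comparisons with WT share the 3 WT arrays.

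**Figure D1:**
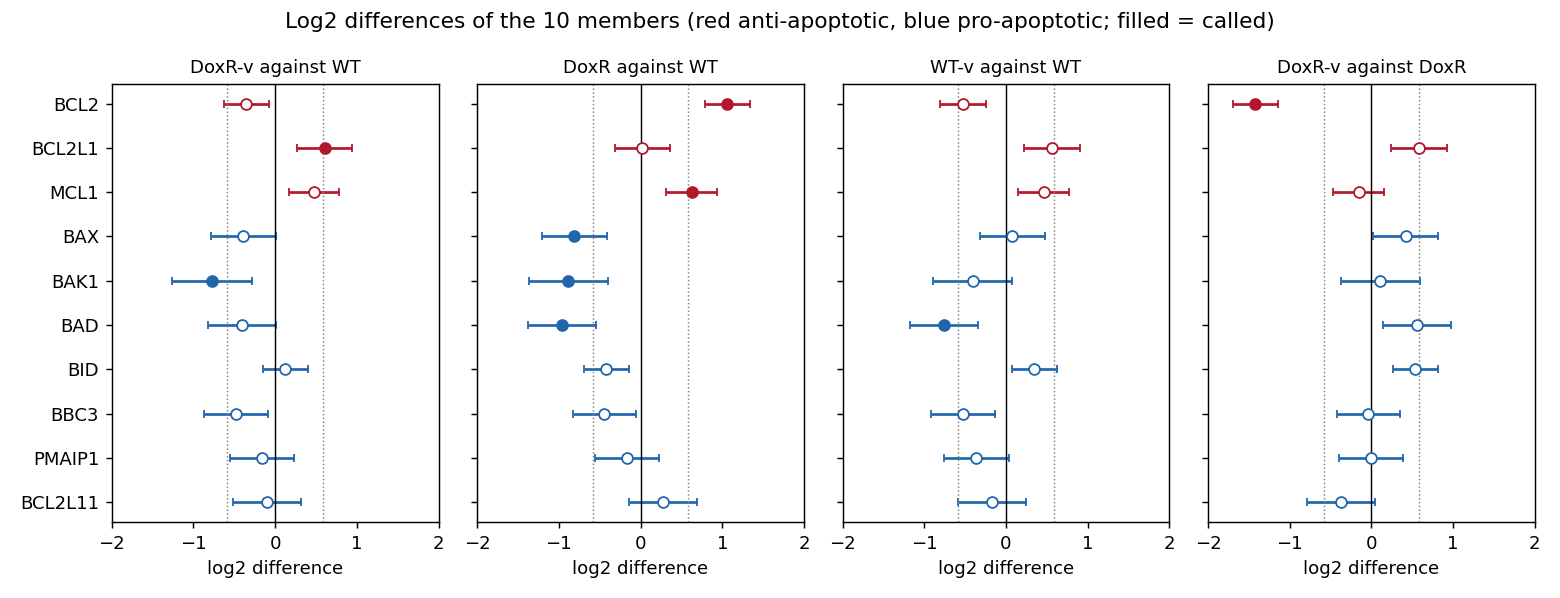
Log2 difference of the main probe of each of the 10 members (rows) in 4 comparisons (panels), with 95% confidence intervals as bars and dotted lines at a fold change of 1.5. Filled points were called; in DoxR against WT, 2 anti-apoptotic members (red) lie to the right and 3 pro-apoptotic members (blue) to the left.

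BCL2, the founding anti-apoptotic member, moved most between the groups. Its main probe (ILMN_2246956, annotated to the alpha transcript) read 8.41, 8.52 and 8.21 on the DoxR-v arrays, 9.82, 9.78 and 9.80 on the DoxR arrays, 8.26, 8.23 and 8.15 on the WT-v arrays and 8.64, 8.70 and 8.86 on the WT arrays. Every DoxR array was above every other array, and the DoxR-v and WT-v arrays all lay below the WT arrays. DoxR cells exceeded WT cells by log2 1.06 (SE 0.13, 2.09-fold, limma adjusted p = 3.0e-05). DoxR-v cells were lower than DoxR cells by 2.67-fold (log2 -1.42, SE 0.13, limma adjusted p = 2.6e-06). Against WT, DoxR-v cells differed by -0.35 (limma adjusted p = 0.0551) and WT-v cells by -0.52 (limma adjusted p = 0.00782), both under the fold limit. In order of level, DoxR cells came first, then WT, DoxR-v and WT-v cells, and only the step between DoxR and WT was called between neighbours. The calls in DoxR against WT and in DoxR-v against DoxR held under all 23 alternatives run, with differences of 0.81 to 1.36 and -1.49 to -1.02. The study itself listed no difference in BCL2 between DoxR and WT cells of this line (fold under 1.5, p above 0.1, or both).

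A second alpha probe of BCL2 (ILMN_1801119) gave 7.80, 8.13 and 7.53 on the DoxR-v arrays, 9.33, 9.27 and 9.06 on the DoxR arrays, 8.08, 8.01 and 7.79 on the WT-v arrays and 8.23, 8.11 and 8.47 on the WT arrays. The DoxR arrays again stood above all others. It was called in the same pair of comparisons, at log2 0.95 for DoxR against WT and -1.40 for DoxR-v against DoxR. Of the 2 probes annotated to the shorter beta transcript, 1 was detected on no array and the other on 2 DoxR arrays only, with no call.

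The start regions of BCL2, BAX and BAK1 are printed because these genes carried calls in DoxR cells on opposite sides of the family. Each run holds the 300 bases from 250 before to 50 after the RefSeq start (GRCh38.p14), 5′ to 3′ on the gene's own strand, with capitals marking the canonical E-box CACGTG, a hexamer that MYC and MYCN proteins bind as dimers with MAX. BCL2 lies at chr18:63319720-63320019, minus strand, BAX at chr19:48954625-48954924, plus strand, and BAK1 at chr6:33580227-33580526, minus strand.
BCL2 promoter: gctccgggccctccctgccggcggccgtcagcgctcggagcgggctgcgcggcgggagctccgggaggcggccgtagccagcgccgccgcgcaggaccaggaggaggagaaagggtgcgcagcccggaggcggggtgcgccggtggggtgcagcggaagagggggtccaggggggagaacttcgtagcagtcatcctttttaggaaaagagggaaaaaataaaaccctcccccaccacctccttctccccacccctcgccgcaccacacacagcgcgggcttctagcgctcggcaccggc
BAX promoter: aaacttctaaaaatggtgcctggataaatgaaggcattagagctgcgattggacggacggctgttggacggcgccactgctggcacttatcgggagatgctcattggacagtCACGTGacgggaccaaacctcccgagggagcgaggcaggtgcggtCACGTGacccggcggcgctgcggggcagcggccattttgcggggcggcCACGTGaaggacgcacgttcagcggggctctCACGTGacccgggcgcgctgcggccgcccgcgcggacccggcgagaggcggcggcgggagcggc
BAK1 promoter: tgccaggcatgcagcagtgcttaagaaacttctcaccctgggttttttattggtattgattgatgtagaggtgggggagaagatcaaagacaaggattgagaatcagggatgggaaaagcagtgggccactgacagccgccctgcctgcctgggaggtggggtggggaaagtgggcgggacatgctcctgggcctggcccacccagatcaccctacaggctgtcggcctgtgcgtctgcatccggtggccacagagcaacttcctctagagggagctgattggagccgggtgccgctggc
The BAX region held 4 E-boxes, and those of BCL2 and BAK1 held none. CACGTG was present in 3 of the 9 members with a RefSeq start region (BAX, BID and BBC3), against 7.26% of 35116 start regions. GGGCGG, the core of the GC box that SP1 binds, was present in 7 of 9 members against 45% of all, CCAAT in 5 of 9 against 34.6%, and TATAAA in 0 of 9 against 11.5%. All 4 motifs were searched on both strands. The BCL2 region held none of them. The members' start regions had a median GC content of 70.0%, against 58.7% over all. A match in these letters is a description of the window and not a site that was measured.

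**Figure D2:**
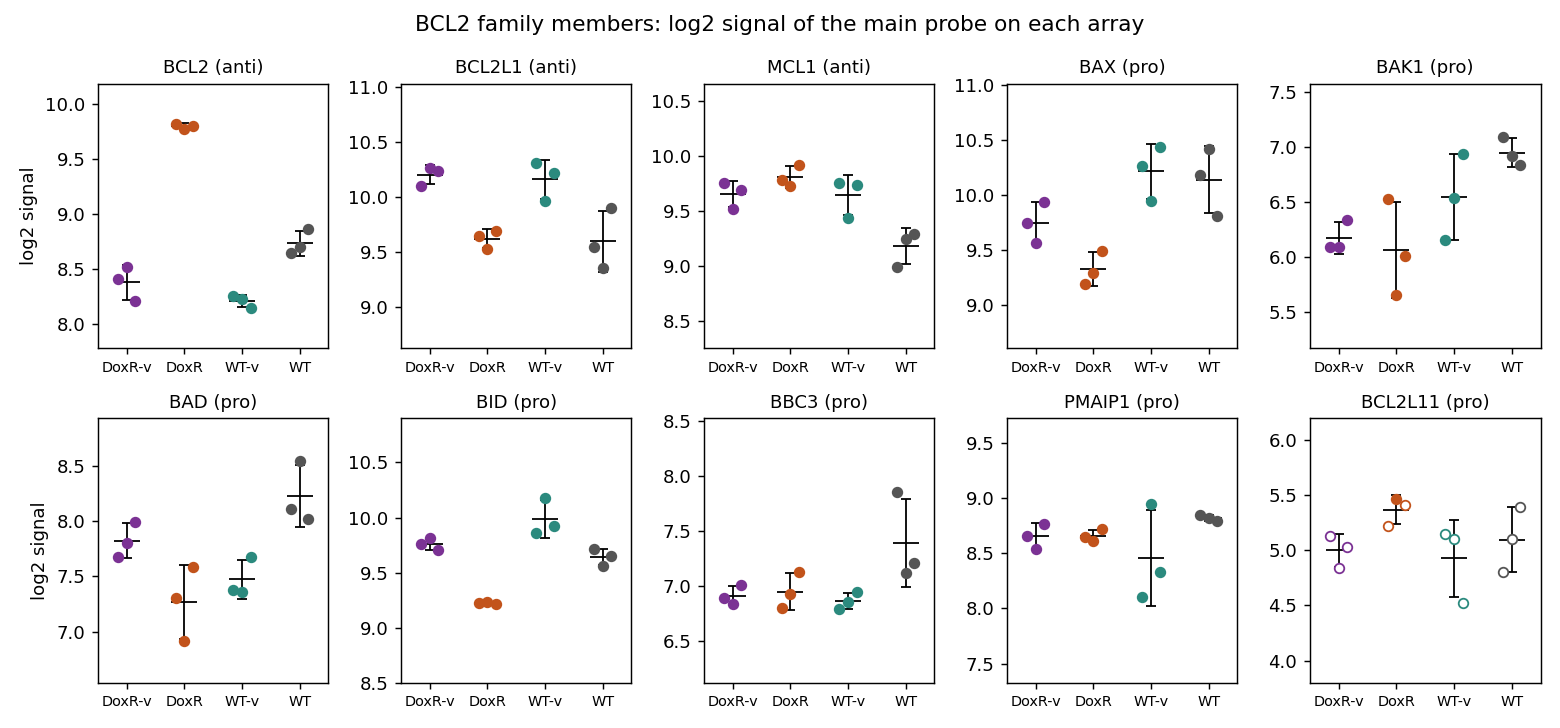
Log2 signal of the main probe of each member on each of the 12 arrays (points), by group, with the group mean and SD as lines; open points were not detected. The DoxR arrays of BCL2 stand apart above all others, and those of BID below all others, whereas BCL2L11 was detected on 1 array.

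BCL2L1, which encodes the guardian BCL-XL, had higher signals in both vorinostat-exposed groups than in the groups without it. It read 10.11, 10.27 and 10.24 on the DoxR-v arrays, 9.65, 9.53 and 9.69 on the DoxR arrays, 10.31, 9.96 and 10.22 on the WT-v arrays and 9.55, 9.36 and 9.90 on the WT arrays. No array of a vorinostat-exposed group overlapped one without vorinostat. The difference was called in DoxR-v against WT (log2 0.60, SE 0.16, 1.52-fold, limma adjusted p = 0.0114). It stayed just under the fold limit in WT-v against WT (0.56, limma adjusted p = 0.0156) and in DoxR-v against DoxR (0.58, limma adjusted p = 0.0121). The WT-v difference was called without WT replicate 3 (0.71) or WT-v replicate 2 (0.66), and the DoxR-v against DoxR difference without DoxR replicate 1 (0.59), DoxR replicate 3 (0.62) or DoxR-v replicate 1 (0.63). DoxR and WT cells differed by 0.02 (95% interval -0.32 to 0.36). The DoxR-v call sat at the limit, since it was lost on the authors' normalized values (0.53) and on leaving out DoxR-v replicate 2 (0.57), WT replicate 1 (0.58) or WT replicate 2 (0.48). A second, dim probe was detected on 10 arrays, 1 of them WT, and was called higher in DoxR-v cells (log2 0.79) and in WT-v cells (1.04) against WT. Its WT arrays spread widely (SD 0.75) and overlapped those of both groups. On this probe DoxR cells lay 0.47 above WT and DoxR-v cells 0.32 above DoxR, neither called.

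MCL1, a short-lived guardian that binds BAK1 and several BH3-only proteins, was lowest in WT cells. Its signals were 9.76, 9.52 and 9.69 on the DoxR-v arrays, 9.78, 9.73 and 9.92 on the DoxR arrays, 9.76, 9.43 and 9.74 on the WT-v arrays and 8.998, 9.25 and 9.30 on the WT arrays. Each array of the 3 drug-exposed groups was above each WT array, and those 3 groups overlapped one another. DoxR cells were called higher than WT cells (log2 0.63, SE 0.14, 1.54-fold, limma adjusted p = 0.00385). The differences of 0.48 in DoxR-v and 0.46 in WT-v cells passed the adjusted p (limma, 0.0251 and 0.0269) but not the fold limit. The DoxR call was lost with the deposited values (0.53) and without WT replicate 1 (0.54) or DoxR replicate 3 (0.57). It was also lost without background correction, with the mean of all MCL1 probes and at a fold limit of 2. The second MCL1 probe was, of the comparisons with WT, called in that of WT-v cells (log2 0.85, limma adjusted p = 0.00639). In DoxR against WT it differed by 0.40 (limma adjusted p = 0.142).

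Both pore-forming members were lower in DoxR cells on their main probes. BAX, which moves from the cytosol to mitochondria on activation, read 9.75, 9.56 and 9.94 on the DoxR-v arrays, 9.19, 9.30 and 9.50 on the DoxR arrays, 10.27, 9.95 and 10.43 on the WT-v arrays and 10.18, 10.42 and 9.81 on the WT arrays. The DoxR arrays all lay below the WT arrays, while DoxR-v and WT-v arrays each overlapped them. DoxR cells were 1.76-fold lower than WT cells (log2 -0.81, SE 0.18, limma adjusted p = 0.00357). DoxR-v cells differed by -0.39 from WT (limma adjusted p = 0.133), by 0.42 from DoxR (0.102) and by -0.47 from WT-v (0.0761, under the fold limit). The DoxR call was lost with the mean of all BAX probes (-0.20) and with median scaling (-0.57). A dim BAX probe ran against the main one in DoxR-v cells, where it was called higher than WT (log2 0.60). In DoxR against WT its sign was opposite too (0.42, limma adjusted p = 0.22, not called), with all 3 DoxR arrays detected. In WT-v cells it was called higher than WT (0.68, limma adjusted p = 0.0588). It was detected on all 3 DoxR-v arrays and on 1 WT array, and its DoxR-v and WT signals overlapped.

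BAK1, which resides in the mitochondrial membrane, had 1 probe on the array. It read 6.09, 6.09 and 6.34 on the DoxR-v arrays, 6.52, 5.66 and 6.01 on the DoxR arrays, 6.15, 6.53 and 6.93 on the WT-v arrays and 7.09, 6.91 and 6.83 on the WT arrays. Neither resistant line overlapped WT, and WT-v overlapped both resistant lines and WT. Without WT-v replicate 3, WT-v cells too were called lower than WT (-0.60). The difference from WT was log2 -0.77 in DoxR-v cells (SE 0.23, 1.71-fold lower, limma adjusted p = 0.0207) and -0.88 in DoxR cells (1.84-fold lower, limma adjusted p = 0.00733). DoxR-v and DoxR cells differed by 0.11 (95% interval -0.38 to 0.60). BAK1 is a dim probe, and from the authors' normalized values the differences were -0.31 in DoxR-v and -0.34 in DoxR cells and neither was called. The DoxR-v call was also lost with an offset of 50 (-0.57) and with median scaling (-0.43).

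Among the BH3-only genes, BAD was the one whose main probe was called. BAD binds BCL2 and BCL-XL and is held inactive by phosphorylation and 14-3-3 proteins. Its main probe read 7.68, 7.80 and 7.99 on the DoxR-v arrays, 7.30, 6.92 and 7.59 on the DoxR arrays, 7.38, 7.36 and 7.67 on the WT-v arrays and 8.11, 8.55 and 8.02 on the WT arrays. WT was above all drug-exposed groups, and DoxR-v was above DoxR and WT-v, with no overlap in either case. DoxR cells were 1.94-fold lower than WT cells (log2 -0.96, SE 0.19, limma adjusted p = 0.00161), and WT-v cells 1.69-fold lower (-0.76, limma adjusted p = 0.00978). DoxR-v cells differed by -0.40 from WT (limma adjusted p = 0.139) and by 0.56 from DoxR (0.0432, under the fold limit), a difference that was called without DoxR replicate 3 (0.71) or DoxR-v replicate 1 (0.63). The calls were lost with the deposited values, where the differences were -0.58 in DoxR and -0.48 in WT-v cells, and that of WT-v cells also without background correction (-0.55), with median scaling (-0.37) and with the mean of all BAD probes (-0.57). A dimmer BAD probe (ILMN_1685398) was detected on 2 DoxR-v and 3 WT arrays and on no DoxR or WT-v array. It was at least 1.66-fold lower in DoxR and at least 1.71-fold lower in WT-v cells than in WT cells, the undetected arrays being set to the lowest signal detected on them where their own was below it.

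BID, which caspase-8 cleaves to link death receptors to mitochondria, had its lowest values in DoxR cells. It read 9.76, 9.82 and 9.71 on the DoxR-v arrays, 9.22, 9.23 and 9.22 on the DoxR arrays, 9.86, 10.18 and 9.92 on the WT-v arrays and 9.71, 9.56 and 9.65 on the WT arrays. DoxR arrays lay below all others, yet the differences stayed under the fold limit: log2 -0.42 for DoxR against WT (limma adjusted p = 0.0198) and 0.54 for DoxR-v against DoxR (limma adjusted p = 0.00538). The other BID probes also had their lowest group mean in DoxR cells, at 7.63 for ILMN_2372413 and 5.36 for the dim ILMN_2259495. ILMN_2372413 was called higher in WT-v than in WT cells (log2 0.81), and ILMN_2259495 was called lower than in WT in DoxR-v (-0.93) and DoxR cells (-1.11).

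The remaining BH3-only genes had no call on their main probes. BBC3 (PUMA), a strong inducer of apoptosis downstream of several stresses, read 6.90, 6.84 and 7.01 on the DoxR-v arrays, 6.80, 6.93 and 7.13 on the DoxR arrays, 6.79, 6.86 and 6.94 on the WT-v arrays and 7.85, 7.12 and 7.21 on the WT arrays. WT replicate 1 was high and the other arrays lay close together. Differences from WT were log2 -0.48 in DoxR-v, -0.44 in DoxR and -0.53 in WT-v cells, under the fold limit in each case. Without WT replicate 2 the differences of -0.62 in DoxR-v and -0.67 in WT-v cells were called, as was that of -0.62 in WT-v cells without WT replicate 3. Without the high WT replicate 1 the differences were -0.25 in DoxR-v, -0.21 in DoxR and -0.30 in WT-v cells, none called (limma adjusted p = 0.265, 0.313 and 0.168). PMAIP1 (NOXA), which binds MCL1, ranged from 8.10 to 8.94, with both extremes among the WT-v arrays and group means of 8.65 in DoxR-v, 8.66 in DoxR, 8.46 in WT-v and 8.82 in WT cells. Without WT-v replicate 2 the difference of WT-v from WT was -0.60 and was called. A second PMAIP1 probe was called higher in DoxR-v than in WT-v cells (log2 0.59, limma adjusted p = 0.0465). BCL2L11 (BIM) had 3 probes, 1 detected on no array and the others on 1 DoxR array each, so its signals between 4.53 and 5.47 on the main probe were near background and differences were not detectable.

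DoxR-v cells set against WT-v cells, which compares the vorinostat-exposed lines with and without doxorubicin, had 0 of 10 members called on the main probes by limma, where 25.4% of all genes were called. Leaving out WT-v replicate 2 brought BAX to a call (-0.60). BAX alone had an unadjusted p under 0.05 (1 of 10). BCL2 differed by 0.17 (95% interval -0.11 to 0.45), BCL2L1 by 0.04 (-0.30 to 0.38) and MCL1 by 0.01 (-0.30 to 0.33), while BAD differed by 0.35 (limma adjusted p = 0.199). Of the 11 other probes of the members 4 were called. A pair of dim BAD probes were higher in DoxR-v cells, ILMN_1685398 by at least 1.40-fold and ILMN_1720360, detected on 1 DoxR-v array, by at least 1.02-fold. The dim BID probe was lower (log2 -0.66) and the second PMAIP1 probe higher (0.59). With the mean of all its probes BAD was called higher (0.63).

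The vorinostat difference itself was compared between backgrounds, as the DoxR-v over DoxR value less the WT-v over WT value. In this contrast 3 of 10 members were called, BCL2 and MCL1 lower and BAD higher, against 42.4% of all genes, 20.3% higher and 22.1% lower. BCL2 had negative differences in both backgrounds, -1.42 between DoxR-v and DoxR cells and -0.52 between WT-v and WT cells, and the difference of these differences was -0.89 (SE 0.18, limma adjusted p = 0.00210). For MCL1 the values were -0.15 between DoxR-v and DoxR cells and 0.46 between WT-v and WT cells, a difference of -0.61 (SE 0.20, limma adjusted p = 0.0325). For BAD they were 0.56 and -0.76 in the same order, a difference of 1.31 (SE 0.27, limma adjusted p = 0.00245). The BAD call held under all 22 alternatives run for it and the BCL2 call under 21 of 22, the exception being a fold limit of 2. The MCL1 call was lost under 9 of 22, 5 of which left out a single array (WT replicate 1, WT-v replicate 1 or 3, DoxR replicate 3 or DoxR-v replicate 2). Further members reached a call when 1 array was left out, BBC3 without WT replicate 2 (0.63), PMAIP1 without WT-v replicate 2 (0.60) and BAK1 without DoxR replicate 1 (0.74).

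The balance of the 2 sides was followed on each array. For each member the deviation of its main probe from the WT mean was taken, and the mean of the 3 anti-apoptotic members was subtracted from the mean of the 7 pro-apoptotic ones. A negative balance therefore means relatively more signal on the anti-apoptotic side than in WT cells. It was -0.58, -0.66 and -0.42 on the DoxR-v arrays, -1.06, -1.10 and -1.02 on the DoxR arrays, -0.63, -0.23 and -0.41 on the WT-v arrays and 0.16, 0.10 and -0.26 on the WT arrays. DoxR lay below all other groups, DoxR-v lay between DoxR and WT without overlap, and WT-v overlapped both DoxR-v and WT.

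The group means of the balance were -0.55 ± 0.12 in DoxR-v, -1.06 ± 0.04 in DoxR, -0.42 ± 0.20 in WT-v and 0 ± 0.23 in WT cells (SD, n = 3 each), WT being 0 by construction. In DoxR-v cells the pro-apoptotic mean was -0.31 and the anti-apoptotic mean 0.24. DoxR cells had -0.49 and 0.57, so both sides contributed to their balance. In WT-v cells the means were -0.26 and 0.17. DoxR-v stood 0.50 above DoxR. The balance weights each gene equally, whatever its signal, and no test was run on it. Without BCL2L11, an alternative chosen after seeing the data, it was -0.59 in DoxR-v, -1.18 in DoxR and -0.44 in WT-v cells.

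**Figure D3:**
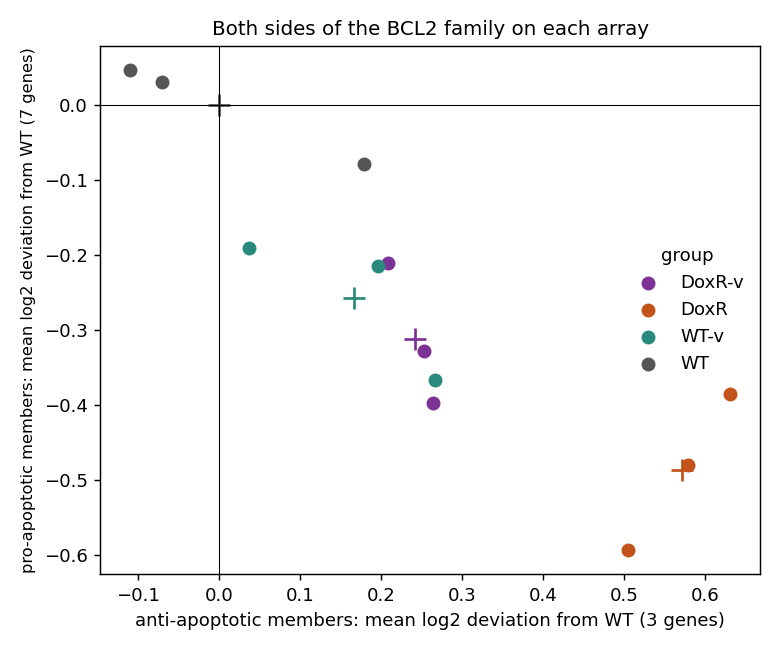
Mean log2 deviation from WT of the 3 anti-apoptotic members (x axis) against that of the 7 pro-apoptotic members (y axis), with a point for each of the 12 arrays and a cross at each group mean. DoxR arrays lie at the lower right, at a group mean of 0.57 and -0.49, and WT arrays around 0.

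Median differences described the sides in the same terms. The anti-apoptotic median was 0.48 in DoxR-v, 0.63 in DoxR and 0.46 in WT-v cells against WT, and the pro-apoptotic median was -0.39, -0.44 and -0.36 in the same order. Over all genes the medians were 0.02, 0.01 and 0.03. Of 7 pro-apoptotic members, 6 were below WT in DoxR-v, 6 in DoxR and 5 in WT-v cells. These counts take any sign, called or not. They include BCL2L11 in DoxR-v (-0.10) and WT-v cells (-0.17), though no array of these groups or of WT detected it. PMAIP1 entered at -0.16 in both DoxR-v and DoxR cells. Median scaling in place of quantile normalization moved the median of all genes by 0.21 in DoxR-v, 0.18 in DoxR and 0.21 in WT-v cells. Relative to that median, the pro-apoptotic medians were then -0.30, -0.33 and -0.29. It also raised the share of higher calls among all called genes to 80.5%, 72.6% and 80.2%, against 51.3%, 51.6% and 53.6% with quantile normalization.

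Probes of 1 gene did not always move alike. Beside the 10 main probes, 11 further probes were tested. In DoxR-v against WT, 5 of these 11 had the sign of the main probe, 4 were called and 3 of the 4 ran against it. In DoxR against WT 8 of 11 and in WT-v against WT 8 of 11 had the main probe's sign, and none was called against it. The 3 opposed calls in DoxR-v cells were a dim BAX probe, a BAD probe detected on 1 array and a BID probe detected on 10 arrays, at log2 0.60, 0.87 and -0.93. The DoxR-v mean of that BAD probe lay below the lowest signals detected on the WT arrays, so no fold could be bounded.

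**Figure D4:**
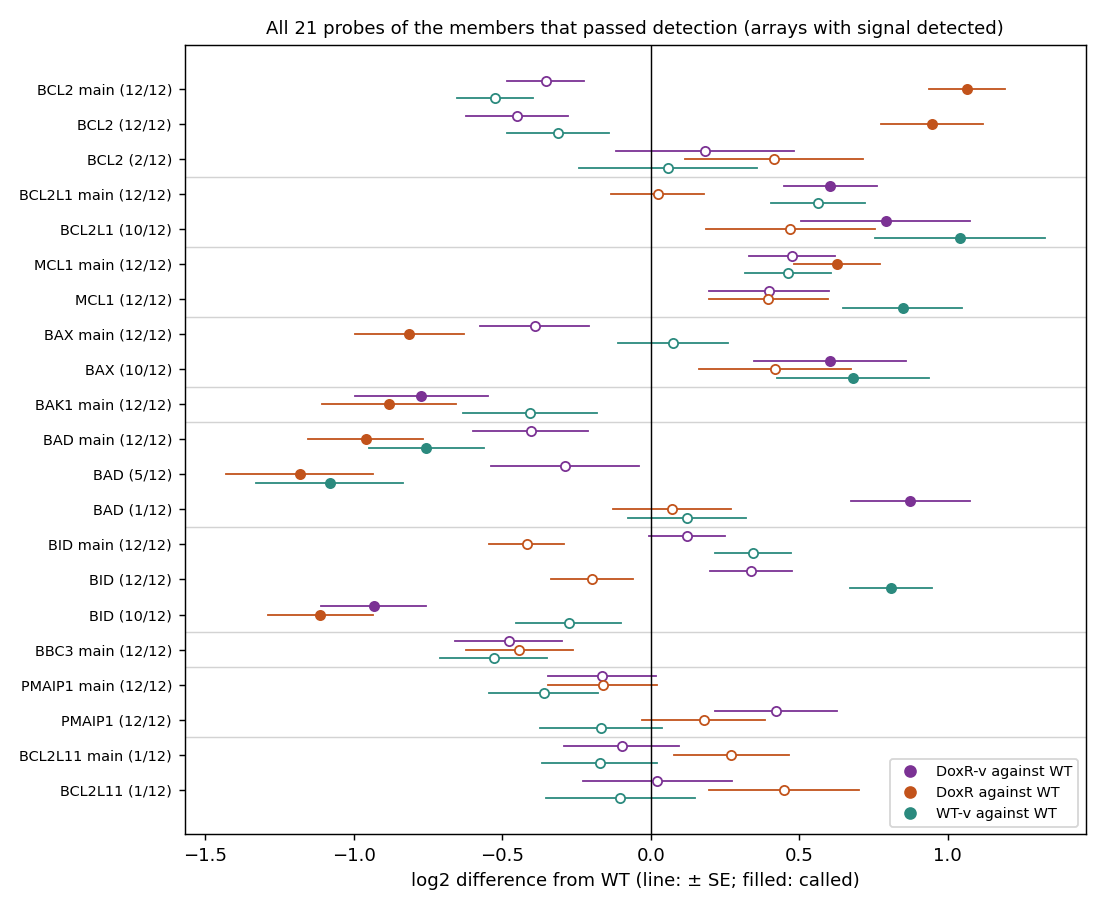
Log2 difference from WT of each of the 21 tested probes of the members (rows, with the number of arrays on which the probe was detected), for DoxR-v, DoxR and WT-v cells; lines are ± SE and filled points were called. The alpha probes of BCL2 lie together at about 1 for DoxR, and the probes of BAX, BAD and BID spread over both sides of 0.

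Genes that act with the family were described through 5 lists of 66 genes, of which 60 were on the array and 53 were measured. Against WT, 18 of the 53 were called in DoxR-v cells (6 higher and 12 lower), beside 25.8% of all genes. In DoxR cells 17 were called (8 higher and 9 lower), beside 33.8%. WT-v cells had 14 calls (7 higher and 7 lower), beside 27.1%. Set against DoxR, DoxR-v cells had 22 calls (10 higher and 12 lower), beside 29.1%. Called or not, 31 of the 53 lay below WT in DoxR-v, 28 in DoxR and 25 in WT-v cells. The median difference of the 53 genes was -0.19, -0.02, 0.06 and -0.08 in these 4 comparisons, against 0.02, 0.01, 0.03 and 0.0046 over all genes. The counts called shrank on the authors' normalized values to 10 in DoxR-v, 12 in DoxR and 8 in WT-v cells against WT, and to 7 in DoxR-v against DoxR.

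Other BCL2 family genes had 7 of 10 measured. BCL2L13, a mitochondrial BCL2 relative, averaged 10.75 ± 0.22 in DoxR-v, 9.86 ± 0.03 in DoxR, 11.09 ± 0.12 in WT-v and 11.21 ± 0.12 in WT cells (SD, n = 3 each). It fell in DoxR cells (log2 -1.35, limma adjusted p = 9.6e-06) and was higher in DoxR-v cells than there (0.89). BCL2L12 was lower in DoxR-v cells than in WT (-0.70, with overlapping arrays) and in DoxR cells (-1.001). HRK, a BH3-only gene of neurons, was lower in DoxR-v cells (-0.65, with overlapping arrays) and at least 1.64-fold lower in WT-v cells, where no array detected it. BMF, a BH3-only gene, was dim and detected on 1 DoxR array only, with calls in DoxR against WT (0.68) and in DoxR-v against DoxR (-0.74). Its DoxR mean lay below the lowest signals detected on the WT and DoxR-v arrays, so no fold could be bounded.

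Inhibitors of apoptosis, which restrain caspases or death-receptor signalling, had 4 of 7 measured. In DoxR cells 3 of the 4 were called higher than in WT, beside 17.4% of all genes called higher. BIRC2 (cIAP1) averaged 9.80 ± 0.18 in DoxR-v, 10.61 ± 0.06 in DoxR, 10.11 ± 0.20 in WT-v and 9.47 ± 0.11 in WT cells (SD, n = 3 each). It rose in DoxR (log2 1.14, limma adjusted p = 4.9e-05) and WT-v cells (0.64). DoxR-v cells lay below DoxR cells for it (-0.80). BIRC6 rose in DoxR cells (0.60). XIAP, a direct caspase inhibitor, was at least 1.39-fold higher in DoxR than in WT cells and at least 1.48-fold lower in DoxR-v cells against DoxR, being undetected on the WT and DoxR-v arrays. The fourth, BIRC5 (survivin), differed by -0.57 between DoxR and WT cells (limma adjusted p = 0.00646, under the fold limit) and was higher in DoxR-v cells, against DoxR (0.66).

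Genes of the apoptosome and of mitochondrial release had 10 of 12 measured. Calls were made for 2 higher and 1 lower of these in DoxR-v, 1 higher in DoxR and 1 lower in WT-v cells against WT, and for 2 higher and 2 lower in DoxR-v against DoxR. Of all genes, 13.3% were called higher and 12.6% lower in DoxR-v, 17.4% higher in DoxR and 12.6% lower in WT-v cells. In DoxR-v against DoxR the shares were 14.7% higher and 14.5% lower. CYCS, which encodes cytochrome c, averaged 8.13 ± 0.38 in DoxR-v, 7.11 ± 0.17 in DoxR, 7.03 ± 0.26 in WT-v and 7.15 ± 0.05 in WT cells (SD, n = 3 each). It rose in DoxR-v cells against WT (log2 0.98, limma adjusted p = 0.00192) and against DoxR (1.02). ENDOG, a mitochondrial nuclease, rose in DoxR-v (1.00) and DoxR cells (0.69). AIFM1, a flavoprotein released from mitochondria, was lower in DoxR-v cells than in WT (-0.69) and in DoxR cells (-0.87). DIABLO (SMAC), which relieves the block by the inhibitors of apoptosis, fell in WT-v cells (-0.59). CASP9, the initiator caspase of the apoptosome, was at least 1.13-fold lower in DoxR-v cells against DoxR.

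Regulators of the transcription of BH3-only genes had 10 of 13 measured. FOXO3, which can activate BCL2L11 and BBC3, averaged 8.41 ± 0.13 in DoxR-v, 9.61 ± 0.10 in DoxR, 9.92 ± 0.30 in WT-v and 9.93 ± 0.35 in WT cells (SD, n = 3 each). It fell in DoxR-v cells against WT (log2 -1.52, limma adjusted p = 7.9e-05) and was also below DoxR cells (-1.1998). FOXO4 fell in DoxR-v (-1.17), DoxR (-1.04) and WT-v cells (-1.11). EGR1, an immediate early factor, was called higher than in WT in DoxR-v (0.79) and WT-v cells (0.85). DoxR cells, without vorinostat, also lay above WT (0.50, limma adjusted p = 0.066, under the fold limit). DoxR-v cells differed from DoxR by 0.29 (limma adjusted p = 0.297). DDIT3 (CHOP), a stress-induced factor that can activate BCL2L11 and repress BCL2, fell in DoxR cells (-1.10), with DoxR-v cells above DoxR (0.62). MYC, from a dim probe detected on 1 DoxR array and no DoxR-v array, was called lower in DoxR-v cells against DoxR (-0.84). No fold could be bounded for it. TRIB3, a pseudokinase induced by the same stress, fell in WT-v cells (-0.59). It also lay below WT in DoxR (-0.54, limma adjusted p = 0.0164) and DoxR-v cells (-0.48, limma adjusted p = 0.0348), both under the fold limit.

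Genes that control the family after translation had 22 of 24 measured. BAG3, a co-chaperone that stabilises MCL1 and BCL-XL, averaged 7.34 ± 0.54 in DoxR-v, 8.002 ± 0.14 in DoxR, 5.96 ± 0.30 in WT-v and 9.50 ± 0.01 in WT cells (SD, n = 3 each). It fell in all 3 groups against WT, by log2 -2.15, -1.50 and -3.54 in that order (limma adjusted p = 1.8e-05, 2.1e-04 and 2.5e-07). YWHAE, a 14-3-3 protein of the kind that retains BAD, was higher than in WT in DoxR-v (1.51), DoxR (1.37) and WT-v cells (1.84), with WT arrays that spread widely (SD 0.81). AKT1, a kinase that phosphorylates BAD, was higher than in WT by 1.10 in DoxR-v and by 1.27 in WT-v cells, and DoxR-v cells exceeded DoxR cells (0.72). MAPK8 (JNK1) rose in DoxR cells (1.47), with DoxR-v cells below DoxR (-0.68). DYNLL2, a dynein light chain that tethers BMF, fell in DoxR cells (-1.74), and DoxR-v cells exceeded DoxR cells (0.97).

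**Figure D5:**
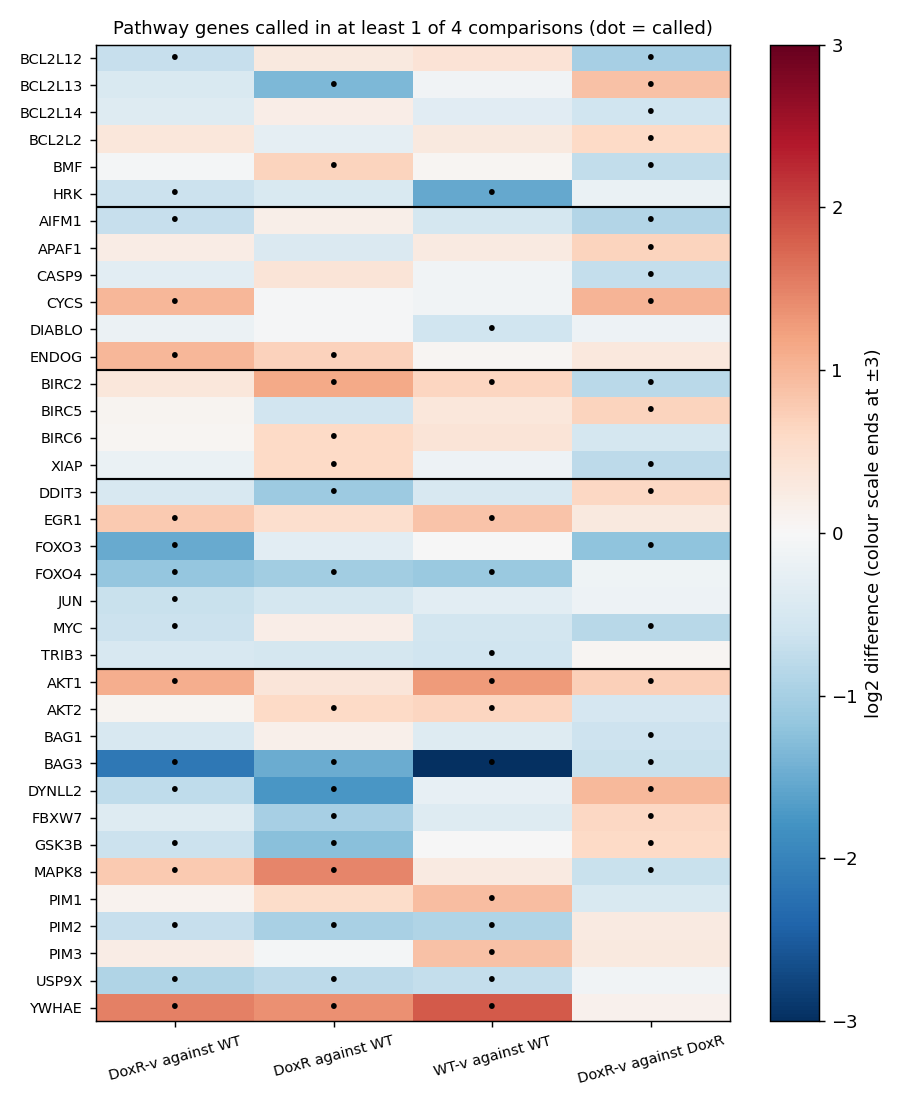
Log2 difference (colour, blue lower and red higher, scale ending at ±3) of the 36 pathway genes called in at least 1 of the 4 comparisons (columns), grouped by list with black lines; dots mark calls. The BAG3 row is blue in all columns, and the difference of -3.54 in WT-v against WT is drawn at the end of the scale.

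Genes with a pattern most like BCL2, the member whose group means ranged furthest, were sought over the 12 arrays among 12137 other genes. Pearson's r was 0.990 for FAM135B, 0.989 for RIMKLB, 0.988 for ST3GAL1, 0.987 for TSPYL5 and 0.983 for ASB13, with Spearman's rho of 0.90, 0.99, 0.92, 0.93 and 0.91. The arrays fall into 4 groups of replicates, so these values describe mostly the group means. TSPYL5 averaged 9.45 in DoxR-v, 10.92 in DoxR, 9.46 in WT-v and 9.86 in WT cells, and ST3GAL1 5.48, 8.43, 5.49 and 6.41. Within the family, BID (r = -0.93) and BAX (r = -0.76) ran most against BCL2 over the same arrays.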

How the data were processed

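Expression was measured on Illumina Human HT-12 v4 BeadChips. The deposited signal intensity per probe was summarised from beads by the authors and not normalized between arrays. A deposited detection p-value stands beside each signal. A second set of intensities was quantile normalized by the authors. Per the submitters' processing notes, R 3.0.1 and lumi 2.13.3 were used. The study's methods also name limma and topGO for its own analysis, and the software that summarised the beads is not given in the sources used here.

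From the raw signals, background was corrected by normexp with parameters from the detection p-values (offset 16), followed by log2 and quantile normalization. Of 47323 probes, 21730 had a detection p under 0.01 on at least 1 array. Probe symbols came from GEO's platform annotation, updated through Entrez IDs (30074 matched). A gene with several probes took the probe with the highest mean, and all probes of the members were tested. Groups came from the labels. The 6 comparisons came from 1 linear model of group means with empirical Bayes variances (limma 3.58.1, R 4.3.3), and p-values were adjusted by Benjamini-Hochberg over all probes. The fit was tested on simulated data. A log2 change of 1 was recovered for 65 to 76 of 100 probes between 2 groups and for 41 of 100 in the interaction. In the simulation 21530 of 21730 probes were unchanged, whereas 5105 to 8419 probes were called per comparison in these data. The adjusted p was therefore a stricter limit in the simulation. How often a change of that size goes uncalled in these data was not measured. Where the lower group was undetected on all its arrays, the fold is a lower bound from the lowest detected signal. No bound exists where the higher group's mean lay below that signal. The plain difference is then printed, and its size is not reliable.

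The members and gene lists were chosen with earlier results of these data known. Named were all members with all probes, up to 3 called genes of each list and comparison with the largest change, the 5 genes most like the widest-ranging member, and ABCB1. Start regions came from RefSeq, matched by symbol for 9 of 10 members; MCL1 was not matched. Alternatives tried were the authors' normalized values, uncorrected background, an offset of 50 and median scaling for the values, every probe or those detected on 3 or more arrays for the filter, and, for the fit and call, separate fits of the compared groups, a block for the replicate number, averaging a gene's probes, a limit of 0.05 on the adjusted p, a 2-fold limit, and each array left out in turn. Replicate numbers did not pair the arrays. The precision is limited by 3 arrays per group.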

Additional observations from a re-analysis of the deposited data

Results flagged for a closer look

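An interaction term in limma compared the vorinostat difference of the resistant background (DoxR-v over DoxR) with that of the parental one (WT-v over WT), and its called members and up to 3 genes of each pathway list are given here. Over all genes 42.4% were called in this contrast, and the separate selection of the 2 resistant lines enters each value. Among the members the interaction was log2 -0.89 for BCL2, -0.61 for MCL1 and 1.31 for BAD.

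In the other BCL2 family genes it was -1.41 for BCL2L12, 1.33 for HRK and 1.00 for BCL2L13. HRK was detected on 2 DoxR-v, 3 DoxR, 0 WT-v and 2 WT arrays. CYCS gave 1.14, and among the inhibitors of apoptosis BIRC2 gave -1.45 and BIRC6 -0.93. BIRC2 lay below DoxR in DoxR-v cells (-0.80) and was higher by 0.64 in WT-v than in WT cells.

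Of the transcriptional regulators FOXO3 gave -1.19, DDIT3 1.11 and FOXO4 0.98. Of the genes that act after translation BAG3 gave 2.88, YWHAE -1.71 and PIM1, a kinase that phosphorylates BAD, -1.36. BAG3 had the largest size among these 15 genes. It lay below DoxR in DoxR-v cells (-0.66) and below WT in WT-v cells (-3.54).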

How the results depend on the processing

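No value changed sign while called. BCL2 in DoxR against WT, BCL2 in DoxR-v against DoxR and the BAD interaction were called under every alternative run. With the deposited normalized values, 0 of 10 members were called in DoxR-v against WT, 2 in DoxR and 0 in WT-v, and without background correction 0, 3 and 0. An offset of 50 left 0 in DoxR-v against WT. Median scaling gave 3 calls in WT-v against WT, all higher (BCL2L1, MCL1 and BID, with BAD no longer called), and 3 in DoxR-v against DoxR. The mean of all probes gave 3 in DoxR and 2 in WT-v against WT, both higher (BCL2L1 and MCL1), 2 in DoxR-v against DoxR and 1 in DoxR-v against WT-v. A fold limit of 2 left 0 in DoxR-v, 1 in DoxR, 0 in WT-v and 1 for the interaction. Over all genes the deposited values gave 1312 calls in DoxR-v against WT (3136 in the main values), 1961 in DoxR (4097), 1397 in WT-v (3284), 1743 in DoxR-v against DoxR (3535), 1341 in DoxR-v against WT-v (3089) and 2931 for the interaction (5148). Uncorrected background gave 1653 in DoxR-v, 2340 in DoxR and 1708 in WT-v against WT. An offset of 50 gave 2230 in DoxR-v against WT. With median scaling 4131 genes were called in WT-v against WT, 80.2% of them higher, and 3604 in DoxR-v against DoxR. No count over all genes is given for averaged probes or the fold limit of 2. Median scaling moved the median interaction of all genes by -0.19 and its share of higher calls to 33.2%, against 48.0%.

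The balance was -0.80 in DoxR cells with the deposited values, -0.87 when background was left uncorrected and -0.87 when probes of a gene were averaged. Between DoxR-v and DoxR it was 0.40 with the deposited values and 0.39 with the mean of all probes. Leaving out 1 array gave 1 to 2 calls in DoxR-v, 4 to 5 in DoxR and 1 to 3 in WT-v against WT, 1 to 3 in DoxR-v against DoxR, 0 to 1 in DoxR-v against WT-v and 2 to 4 for the interaction. The balance then ran from -0.68 to -0.48 in DoxR-v, -1.19 to -0.98 in DoxR and -0.55 to -0.32 in WT-v cells, and from 0.44 to 0.56 between DoxR-v and DoxR.

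Arrays with the same replicate number did not deviate together (r -0.27 to 0.12 over 18 pairs, and 2 of 12 arrays closest to their own number). With a replicate block the counts of members called stayed at 2, 5, 1, 1, 0 and 3 over the 6 comparisons and no member changed its call. Signals of BCL2L11, and of several second probes, lie near background, which limits what differences could be detected there.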

Other observations

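DoxR-v and WT-v cells, both exposed to vorinostat, differed in 10 of the 53 pathway genes measured, 5 higher and 5 lower in DoxR-v cells, against 25.4% of all genes called. FOXO3 was lower in DoxR-v cells (log2 -1.51, limma adjusted p = 8.6e-05), as were BCL2L12 (-1.11), PIM1 (-0.81) and PIM3 (-0.66). CYCS (1.10), ENDOG (0.94) and BAG3 (1.39) were higher. HRK was at least 1.05-fold higher, being detected on 2 DoxR-v arrays and on no WT-v array. VDAC2, a channel of the outer mitochondrial membrane, was also called higher (limma adjusted p = 0.0895), but was detected on no array of either group, so no fold is given.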
